A study of Mus musculus with 30 samples.

Results

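The colonocyte absorption genes are 10 genes of the mouse colon, taken by name from the table of gene counts: *Slc26a3*, *Slc9a3*, *Slc9a2*, *Car1*, *Car2*, *Car4*, *Aqp4*, *Aqp8*, *Guca2a* and *Guca2b*. All 10 were found among 46078 genes, and all 10 were among the 16261 genes that passed the filter on low counts. RNA came from the scraped epithelial layer of the colon of wild-type C57BL/6J mice, with 5 mice in each of 6 groups. Vehicle mice of either sex received saline and carry the 9-week label. Treated mice received a single intraperitoneal injection of azoxymethane (AOM, a colon carcinogen) at 10 mg/kg and then 3 cycles of 2.5% dextran sodium sulfate (DSS, which injures the colon lining) in the drinking water, and were killed at 9 or 15 weeks, counted from the AOM. No 15-week vehicle group was analysed, so time and treatment cannot be told apart at 15 weeks. The 15-week mice bore tumours, and the scrape was of tissue outside them. Nothing in the labels gives the stretch of colon that was scraped.

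Absorptive colonocytes take up sodium chloride and water from the gut contents. The apical exchanger Slc26a3 takes in chloride for bicarbonate and works beside the sodium-proton exchangers Slc9a3 (NHE3) and Slc9a2 (NHE2). Carbonic anhydrases supply the protons and bicarbonate that both kinds of exchanger trade, with Car1 and Car2 in the cytosol and Car4 held on the apical membrane. The aquaporins Aqp8 and Aqp4 are water channels, and Guca2a (guanylin) and Guca2b (uroguanylin) are peptides secreted into the gut that act on guanylate cyclase C and turn colonic transport toward secretion.

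Among the 10 genes, *Car2* fell after AOM/DSS at both times, and no other gene passed the thresholds in the comparisons of all treated with all vehicle mice. *Car2* was 0.666-fold of vehicle at 9 weeks and 0.736-fold at 15 weeks, where 8.29% and 7.35% of all genes were called. The 15-week call was lost in 4 of 20 leave-one-out fits and in 5 of 16 other settings. In females alone *Car2* was called at neither time. In scraped tissue, fewer cells that make an RNA and less RNA per cell cannot be told apart. Between the sexes at 15 weeks, *Car4* was 1.85-fold higher in males than in females, a call that was lost in 8 of 10 leave-one-out fits. Much of the spread lay among mice of the same group: *Car1* ran over a 25.7-fold range in the 30 libraries and varied with the *Hox* genes that mark position along the colon.

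Counts of reads per gene summed to between 9265804 and 30806392 per library. Levels between libraries are given as counts-per-million values (CPM) scaled by edgeR's TMM factors, and levels between genes only as transcripts-per-million values (TPM), which allow for length. The scrapes held epithelial RNA: 10 of 10 epithelial markers (*Epcam*, *Cdh1*, *Krt8* and others) were expressed, with a summed level of 12246 to 22151 CPM. This does not measure purity. Connective tissue markers summed to 35.9 to 1515 CPM, and plasma and B cell markers to 187 to 967 CPM. Some libraries stood apart. The library of vehicle male 1 held 5862 CPM of 8 smooth muscle markers against 39.4 to 282 CPM in the other 29, and that of 15-week female 2 drew 22.96% of its counts from mitochondrial genes against 3.95% to 15.6% in the others. *Slc9a3*, *Aqp4*, *Guca2a* and *Guca2b* stood lowest or highest in one of these, and their values are also given without both. For *Aqp8* this is done only for the difference between the sexes at 15 weeks. *Slc26a3* also stood lowest in 15-week female 2, and its values are not given without the pair.

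In the order of median TPM over 30 libraries, *Car1* stood first (1209), followed by *Guca2a* (952), *Car4* (597), *Aqp8* (329), *Car2* (267), *Slc26a3* (172), *Aqp4* (53.6), *Slc9a2* (49.5), *Slc9a3* (35.8) and *Guca2b* (18.7). *Car1* led in 21 libraries, *Guca2a* in 6 and *Car4* in 3. *Car4* exceeded *Aqp8* in 30 of 30 libraries, and *Slc26a3* exceeded *Aqp4* in 30 of 30. *Aqp8* and *Car2* could not be ordered, with *Aqp8* higher in 15 of 30. The guanylin genes sat at opposite ends of the scale, *Guca2a* being 29.6 to 117 times *Guca2b* in TPM. All 10 genes together took 0.617% to 1.99% of a library's counts, and *Car1* alone took 8.79% to 72.0% of that share.

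In GRCm38 coordinates, *Car1* (chr3:14766216-14808368, minus strand) and *Car2* (chr3:14886273-14900770, plus strand) lie 77904 bases apart, and *Guca2a* (chr4:119637704-119639471, plus) and *Guca2b* (chr4:119656607-119658954, minus) lie 17135 bases apart. *Slc26a3* lies at chr12:31390871-31473917 (its RefSeq start falls inside this span), *Slc9a3* at chr13:74121515-74166064, *Slc9a2* at chr1:40680574-40769273, *Car4* at chr11:84957786-84966044 and *Aqp8* at chr7:123462294-123468003. RefSeq promoter windows (GRCm38.p6) were searched for 6 of the genes. *Car1*, *Car2* and *Slc9a2* had no window at hand, and *Aqp4* was left out of the search by choice. The 250 bases before the start are shown for the guanylin pair and for *Slc26a3* and *Aqp8*, since each pair varied together among mice of 1 group. Capitals mark matches, on either strand, to 6 short motifs that are spelled out after the sequences.
Guca2a, chr4:119637482-119637731, plus strand: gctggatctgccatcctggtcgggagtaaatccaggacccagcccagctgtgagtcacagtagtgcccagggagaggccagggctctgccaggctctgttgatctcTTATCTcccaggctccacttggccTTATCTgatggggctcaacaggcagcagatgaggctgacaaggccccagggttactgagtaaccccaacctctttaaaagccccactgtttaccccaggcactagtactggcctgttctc
Guca2b, chr4:119658946-119659195, minus strand: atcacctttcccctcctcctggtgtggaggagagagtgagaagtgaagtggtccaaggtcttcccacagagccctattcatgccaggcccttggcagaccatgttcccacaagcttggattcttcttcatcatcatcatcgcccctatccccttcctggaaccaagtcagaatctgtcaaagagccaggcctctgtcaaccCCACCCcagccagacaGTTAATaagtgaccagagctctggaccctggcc
Slc26a3, chr12:31437969-31438218, plus strand: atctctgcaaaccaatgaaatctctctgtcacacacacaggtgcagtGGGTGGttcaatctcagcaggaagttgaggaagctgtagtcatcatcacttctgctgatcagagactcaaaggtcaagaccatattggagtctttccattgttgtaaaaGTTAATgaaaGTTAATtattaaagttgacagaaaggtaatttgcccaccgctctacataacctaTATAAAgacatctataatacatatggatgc
Aqp8, chr7:123462044-123462293, plus strand: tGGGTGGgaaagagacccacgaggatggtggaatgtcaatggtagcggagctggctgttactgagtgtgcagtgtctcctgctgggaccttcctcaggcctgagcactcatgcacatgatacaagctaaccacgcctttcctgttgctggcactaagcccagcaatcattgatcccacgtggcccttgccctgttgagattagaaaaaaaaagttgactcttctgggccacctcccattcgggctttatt
The neighbouring guanylin genes shared none of the 6 motifs. *Guca2a* held the GATA letters at positions -144 and -120 from the start, on the opposite strand, and *Guca2b* held the HNF1 letters at -33 and the KLF letters at -49. *Slc26a3* held the HNF1 letters at -94 and -84, the TATA box at -30 and the KLF letters at -203, the last of which *Aqp8* also held, at -249. The letters searched for HNF1 were GTTAAT, which stood in 6.43% of all 32851 promoter windows of this length. Those for GATA factors were AGATAA, found in 9.99% of the windows. Those for KLF factors were CCACCC, found in 28.1%. The TATA box was searched as TATAAA and found in 12.4%. For CDX the letters were TTTATG, found in 10.8%. For HNF4 they were CAAAGTCC, found in 1.2%. No match overlapped another. Neither the CDX nor the HNF4 letters were in any of the 6 windows searched, those of *Slc9a3* and *Car4* included. These matches describe letters in a window and were not tied to binding.

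The 2 comparisons with vehicle asked which genes of the set answered to AOM/DSS when both sexes were pooled (10 treated against 10 vehicle mice). They share the vehicle mice, so their values are not independent. A gene was called when the adjusted p was under 0.05 in edgeR's quasi-likelihood test over all 16261 genes, the log2 fold change was beyond 0.4 and the mean FPKM reached 1 in a compared group. By this rule, 1 of the 10 genes was called at 9 weeks (*Car2*, lower) where 8.29% of all genes were called, 2.78% as lower, and 1 at 15 weeks (*Car2*, lower) where 7.35% were, 3.89% as lower. The median log2 fold change of the 10 genes was -0.20 at 9 weeks and 0.28 at 15 weeks, against -0.024 and -0.025 over all genes tested.

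**Figure D1:**
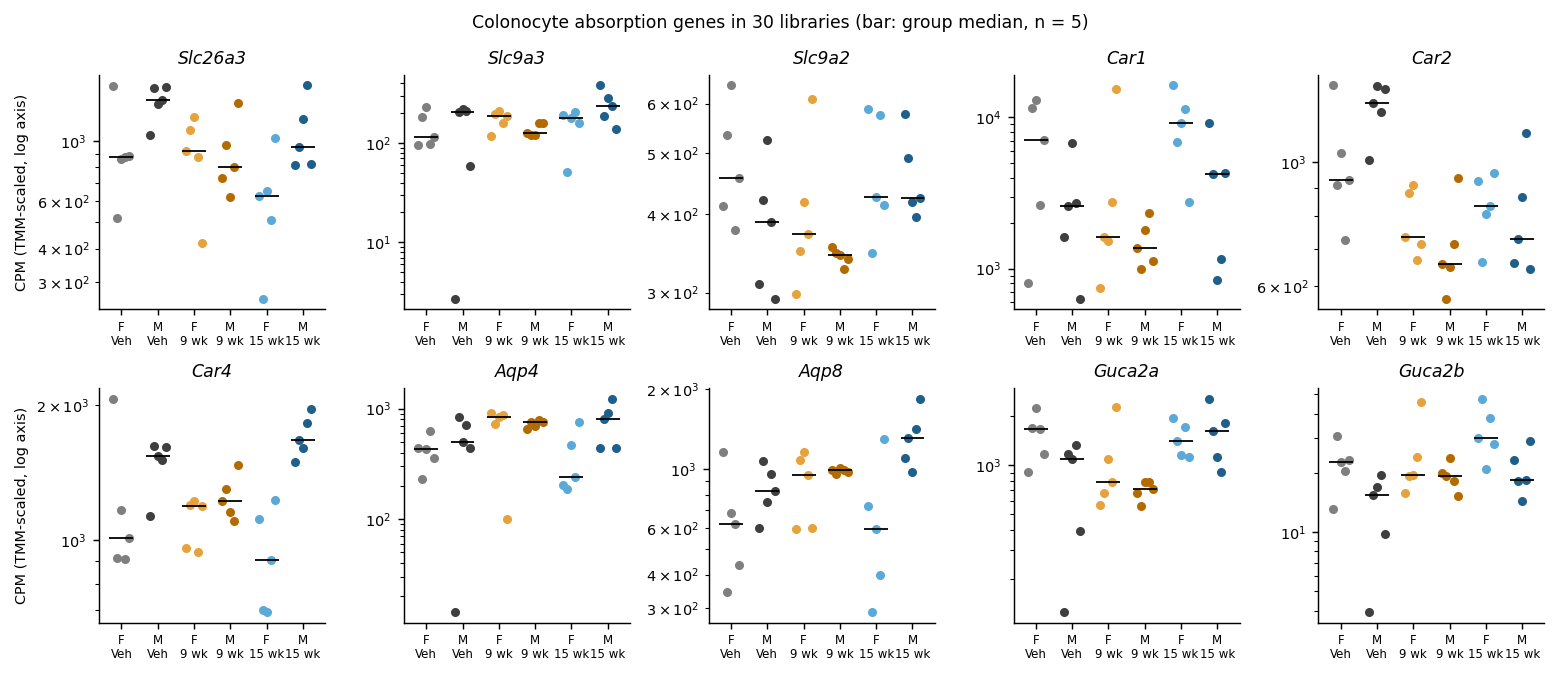
Level of each of the 10 genes in every library, in TMM-scaled CPM on a log axis whose range differs between panels. Points are mice, bars are group medians (n = 5), F and M are females and males, Veh is vehicle. *Car1* spans 635 to 16331 CPM while *Slc9a2* spans 293 to 642 CPM.

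*Slc26a3*, mutated in human congenital chloride diarrhoea, had 519 to 1598 CPM in vehicle females (median 872) and 1056 to 1595 CPM in vehicle males (median 1426). After AOM/DSS the females held 418 to 1225 CPM at 9 weeks and 261 to 1025 CPM at 15 weeks, and the males 623 to 1389 CPM and 819 to 1613 CPM. The groups overlapped throughout. Its log2 fold change was -0.35 (SE 0.22, adjusted p = 0.299 by edgeR) at 9 weeks and -0.50 (SE 0.22, adjusted p = 0.105) at 15 weeks, neither past the threshold. With the proximal *Hox* score described below as a covariate, in a fit added after the data were seen, *Slc26a3* was called lower at both times (-0.51, adjusted p = 0.027, and -0.46, adjusted p = 0.0424). With the distal score added as well it was called at neither (-0.47, adjusted p = 0.0771, and -0.38, adjusted p = 0.497).

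The 2 sodium-proton exchangers showed no called change. *Slc9a3* had 2.70 CPM in vehicle male 1, the library rich in smooth muscle transcripts, against 58.7 to 219.6 CPM in the other 4 vehicle males and 96.3 to 229.8 CPM in vehicle females. The 9-week mice held 119 to 208 CPM, and the 15-week mice 50.5 to 383 CPM, the lowest being 15-week female 2 and the highest a male. *Slc9a3* differed from vehicle by 0.13 (SE 0.38, adjusted p = 0.865) on the log2 scale at 9 weeks and by 0.47 (SE 0.38, adjusted p = 0.396) at 15 weeks, and by -0.032 and 0.43 when vehicle male 1 and 15-week female 2 were left out together, neither called. *Slc9a2* was the steadiest of the 10, with 293 to 642 CPM over all mice, a 2.19-fold range. Its differences were -0.21 (SE 0.13, adjusted p = 0.293) and 0.10 (SE 0.13, adjusted p = 0.592).

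Carbonic anhydrase 2 carried the clearest difference. *Car2* measured 1008, 1278, 1371, 1232 and 1355 CPM in the 5 vehicle males and 657, 570.0, 649.6, 713 and 937 CPM in the 5 males at 9 weeks. Every 9-week male was thus below every vehicle male, a separation whose share over all genes was not computed. At 15 weeks the males held 661, 729, 866, 1128 and 643 CPM, so that 1 treated male (male 4) lay among the vehicle males and 4 lay below them. In females, vehicle mice held 1374, 910.4, 1039, 724 and 930.2 CPM, 9-week mice 733, 879.6, 909, 668 and 714 CPM, and 15-week mice 925, 662, 808, 836 and 956 CPM. These groups of females overlapped.

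Pooled over sexes, the log2 fold change of *Car2* was -0.59 (SE 0.12, 95% confidence interval -0.83 to -0.35, adjusted p = 0.000776 by edgeR) at 9 weeks and -0.44 (SE 0.12, -0.68 to -0.20, adjusted p = 0.013) at 15 weeks. Males alone gave -0.82 (SE 0.17, adjusted p = 0.00207) and -0.63 (SE 0.17, adjusted p = 0.0132), where 7.31% and 8.92% of all genes were called, 2.88% and 4.55% as lower. Females alone gave -0.35 (SE 0.17, adjusted p = 0.268) and -0.25 (SE 0.17, adjusted p = 0.584), where 2.9% and 0.0984% of all genes were called. By edgeR and by DESeq2 none of the 10 was called in females, where 1 had an unadjusted p under 0.05 at 9 weeks (*Car2*) and 1 at 15 weeks (*Car4*). Over all 16261 genes tested in females, 2796 and 1776 had one by edgeR. The difference between the sexes in the *Car2* response was -0.47 (SE 0.23, adjusted p = 0.675) at 9 weeks and -0.38 (SE 0.23, adjusted p = 0.746) at 15 weeks by edgeR's test across all genes, so a sex difference in the response was not shown. The 9-week calls of *Car2* held when any 1 library was left out. The 15-week pooled value fell to between -0.37 and -0.40, within the limit of 0.4, without vehicle female 1, 15-week female 2, 15-week male 1 or 15-week male 5, and in males the adjusted p rose to 0.0503 without 15-week male 1.

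*Car4* was not called against vehicle at either time, with log2 fold changes of -0.19 (SE 0.13, adjusted p = 0.355) and -0.090 (SE 0.13, adjusted p = 0.66). It was, however, called between the sexes at 15 weeks. The 15-week males held 1495, 1676, 1609.6, 1826 and 1964 CPM. The 15-week females held 1116, 697, 692, 903 and 1231 CPM, with no overlap, a separation whose share over all genes was not computed. The log2 difference was 0.89 (SE 0.19, 95% confidence interval 0.50 to 1.27, adjusted p = 0.0422 by edgeR), in a comparison in which 0.184% of all genes were called, 0.123% as higher in males. Vehicle males held 1134 to 1622 CPM and vehicle females 909.6 to 2072 CPM, a log2 difference of 0.29 (SE 0.19, adjusted p = 0.426), which was 0.57 (adjusted p = 0.021, called) without vehicle female 1. At 9 weeks the difference was 0.18 (SE 0.19, adjusted p = 0.999). By edgeR and by DESeq2 none of the 10 was called between the sexes in vehicle mice, where 0.178% of all genes were called and 2 of the 10 had an unadjusted p under 0.05 (*Guca2a* at -0.91 and *Guca2b* at -0.75, or -0.63 and -0.51 without vehicle male 1 and 15-week female 2), or at 9 weeks, where 0.0492% were called and 0 of the 10 had one. Over all 16261 genes tested, 3035 in vehicle mice and 630 at 9 weeks had an unadjusted p under 0.05 by edgeR. A change in the sex difference between vehicle and 15 weeks was not shown (0.60, SE 0.26, adjusted p = 0.592 by edgeR).

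The *Car4* call was narrow. It was lost when any 1 of 8 libraries was left out, namely females 1, 2, 3 and 4 and males 2, 3, 4 and 5 of the 15-week groups, with values of 0.80 to 0.97 and adjusted p-values of 0.0578 to 0.117. Position markers differed between these 2 groups as well. Proximal *Hox* scores were 2.13 to 4.23 in the 15-week females and -2.16 to 2.99 in the males, and the *Car4* difference was 0.69 (adjusted p = 0.231) with that score as a covariate. Its part in the result was not tested further.

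**Figure D2:**
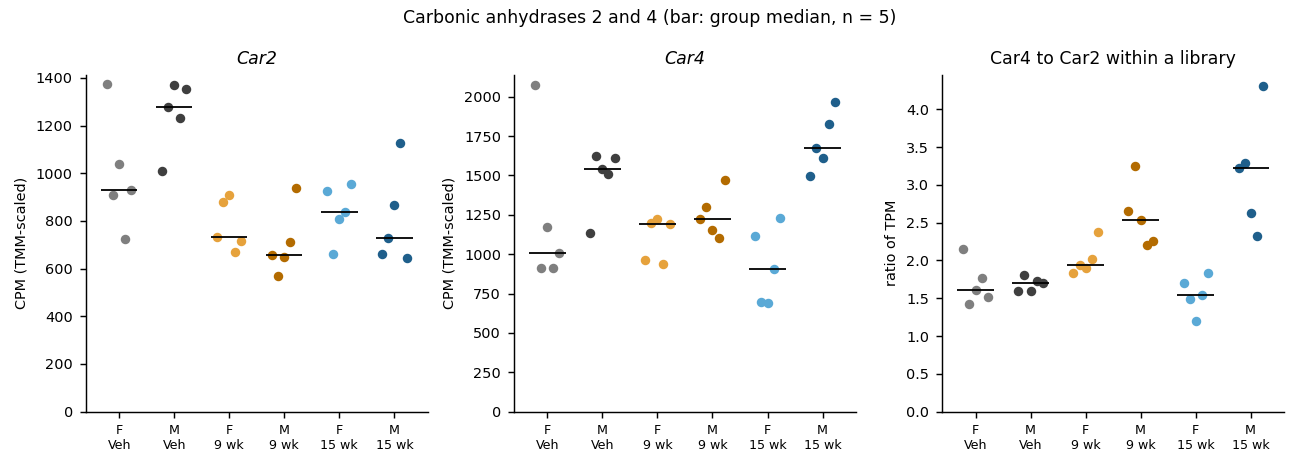
*Car2* and *Car4* in TMM-scaled CPM and the ratio of their TPM within each library, by group. Points are mice and bars are group medians (n = 5). *Car2* lies lower in all 5 males at 9 weeks than in any vehicle male, and the ratio is 1.60 to 1.81 in vehicle males and 2.20 or more in every treated male.

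Ratios within a library do not depend on scaling between libraries. The ratio of *Car4* to *Car2* in TPM was 1.43 to 2.15 in vehicle females and 1.60 to 1.81 in vehicle males. It was 2.20 to 3.25 in 9-week males and 2.32 to 4.30 in 15-week males, above every vehicle male in 5 of 5 and 5 of 5. In females the ratio was 1.84 to 2.38 at 9 weeks and 1.20 to 1.84 at 15 weeks. The 9-week range overlapped that of vehicle females only through vehicle female 1 (2.15), as the other vehicle females held 1.43 to 1.77. At 15 weeks 0 of 5 females exceeded every vehicle female. The ratio was looked at after the values of both genes were known and was not tested.

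*Car1*, the most abundant of the 3 enzymes in most libraries, varied too widely for the groups to be separated. Vehicle females held 799, 11619, 13129.8, 2622 and 7123 CPM and vehicle males 1632, 2587, 6774, 2723 and 635 CPM. At 9 weeks 9 of the 10 mice lay between 750.1 and 2762 CPM and the tenth, female 5, at 15462 CPM. At 15 weeks the females held 16331, 6917, 9244, 11348 and 2754 CPM and the males 9240.0, 4246, 845, 1161 and 4307 CPM. The log2 fold change was -0.79 (SE 0.53, adjusted p = 0.342) at 9 weeks and 0.43 (SE 0.53, adjusted p = 0.587) at 15 weeks. Without 9-week female 5 the first became -1.50 (adjusted p = 0.0283) and was called.

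Of the water channels, *Aqp8* held 346 to 1164 CPM in vehicle females, 598 to 1072 CPM in vehicle males, 594 to 1158 CPM in 9-week females and 955 to 1008 CPM in 9-week males. At 15 weeks it held 289.6 to 1303 CPM in females and 979 to 1847 CPM in males. Its log2 fold change was 0.33 (SE 0.22, adjusted p = 0.332) at 9 weeks and 0.35 (SE 0.22, adjusted p = 0.266) at 15 weeks. The 15-week males exceeded the females by 1.01 (SE 0.31, adjusted p = 0.136), which edgeR did not call and DESeq2 did. Without vehicle male 1 and 15-week female 2 this difference was 0.82 (adjusted p = 0.219 by edgeR). *Aqp4*, found in many tissues at basolateral membranes, was at 14.5 CPM in vehicle male 1 and 99.8 CPM in 9-week female 5, and at 188 to 1232 CPM in the other 28 libraries. Its values of 0.64 (SE 0.41, adjusted p = 0.312) and 0.22 (SE 0.41, adjusted p = 0.733) were not called, and they were 0.48 and 0.16 without vehicle male 1 and 15-week female 2.

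Neither *Aqp8* nor *Slc26a3* was called against vehicle. The TPM ratio of *Aqp8* to *Slc26a3* was 0.906 to 1.52 in vehicle mice, 1.20 to 3.09 at 9 weeks and 1.49 to 4.25 at 15 weeks, so the ranges overlapped when the sexes were pooled. In males, 5 of 5 mice at 9 weeks and 5 of 5 at 15 weeks had a ratio above every vehicle male, and in females 4 of 5 at either time exceeded every vehicle female. This ratio too was chosen after the values were seen and was not tested.

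The guanylin peptides were not called in either comparison. *Guca2a* held 907 to 2231 CPM in vehicle females and 126 to 1323 CPM in vehicle males, the lowest being the smooth-muscle-rich male 1. It held 572 to 2264 CPM in 9-week females, 562 to 791 CPM in 9-week males, 1119 to 1938 CPM in 15-week females and 904 to 2565 CPM in 15-week males. The log2 fold changes were -0.36 (SE 0.30, adjusted p = 0.457) and 0.45 (SE 0.30, adjusted p = 0.288). *Guca2b* ran from 3.94 CPM in the same vehicle male to 47.7 CPM in 15-week female 2, with log2 fold changes of 0.36 (SE 0.22, adjusted p = 0.295) and 0.61 (SE 0.22, adjusted p = 0.0557). The latter lay just above the threshold, and DESeq2 called it (0.63, adjusted p = 0.0296). Without vehicle male 1 and 15-week female 2, where *Guca2b* was lowest and highest, edgeR gave 0.42 (SE 0.19, adjusted p = 0.162) at 15 weeks and 0.25 at 9 weeks, and for *Guca2a* it gave -0.50 and 0.33.

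None of the 10 genes was called between 15 and 9 weeks of AOM/DSS by edgeR or by DESeq2, where edgeR called 2.32% of all genes. An unadjusted p under 0.05 by edgeR was held by 3 of the 10 and by 3846 of all 16261 genes tested. The 3 were *Guca2a* (0.81, SE 0.30, adjusted p = 0.102), *Slc9a2* (0.31, SE 0.13, adjusted p = 0.138) and *Car1* (1.23, SE 0.54, adjusted p = 0.165), each higher at 15 weeks. Without 9-week female 5, the mouse with the highest proximal *Hox* score of its group (4.49 against -0.98 to 2.41), all 3 were called, at 1.06, 0.43 and 1.95. The proximal score ran from 2.13 to 4.23 in 15-week females and from -2.16 to 2.99 in 15-week males, against -1.03 to 4.49 at 9 weeks. With both position scores as covariates the differences were 0.26, 0.17 and 0.51, uncalled as they were without them.

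**Figure D3:**
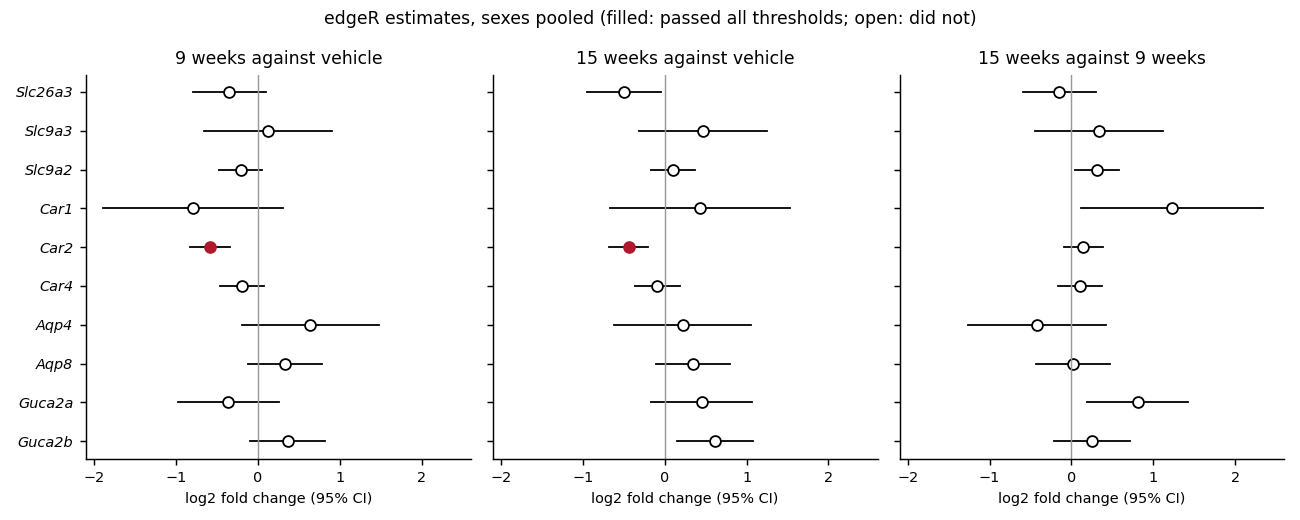
Log2 fold changes of the 10 genes with 95% confidence intervals, sexes pooled (n = 10 per condition). Filled points passed the adjusted p, fold and FPKM limits. *Car2* is filled at -0.59 and -0.44 against vehicle, and every other point is open.

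Whether the genes varied together was asked among mice of the same group, after removing each group's mean log2 CPM (n = 30). Of 45 pairs, 16 were positively and 2 negatively correlated with adjusted p under 0.05 for both Pearson's r and Spearman's rho in a permutation test within groups. The share of passing pairs among other genes was not computed, so these counts cannot be called particular to the set. Of the positive pairs, 11 lay within 2 blocks of genes, which were drawn up after the values were seen. In one, *Slc26a3*, *Car2*, *Car4* and *Aqp8* rose and fell together: r was 0.72 (rho 0.78) for *Slc26a3* with *Car2*, 0.72 (rho 0.56) for *Slc26a3* with *Aqp8*, 0.73 (rho 0.59) for *Car4* with *Aqp8* and 0.68 (rho 0.66) for *Car2* with *Car4*. In the other stood *Car1*, *Slc9a2*, *Guca2a* and *Guca2b*, with r of 0.85 (rho 0.75) for the guanylin pair, whose promoters are given earlier, and 0.80 (rho 0.79) for *Slc9a2* with *Car1*. Between the blocks, *Slc26a3* ran against *Car1* (r = -0.63, rho = -0.63) and against *Guca2b* (r = -0.49, rho = -0.63). In the first block 5 of 6 pairs passed, all but *Car2* with *Aqp8* (r = 0.46), and in the second 6 of 6. The other 5 positive pairs joined the remaining genes to a block. *Aqp4* ran with *Slc26a3* (r = 0.58, rho = 0.67), *Aqp8* (r = 0.46, rho = 0.50) and *Car2* (r = 0.38, rho = 0.47), and *Slc9a3* with *Guca2a* (r = 0.78, rho = 0.61) and *Slc9a2* (r = 0.53, rho = 0.68). The pairs given as passing had adjusted p-values of 0.00045 to 0.0359.

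Leaving out the 2 libraries farthest from the median of the second gene gave r of 0.65, 0.59, 0.67 and 0.59 for the 4 pairs of the first block, in the same order, 0.71 and 0.78 for the pairs of the second, and -0.48 and -0.66 for the pairs that ran in opposite directions. It gave 0.59, 0.41 and 0.31 for the pairs of *Aqp4* and 0.66 and 0.53 for those of *Slc9a3*. Of the 18 pairs, 13 still passed both tests, and 15 did so when the group means were not removed.

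**Figure D4:**
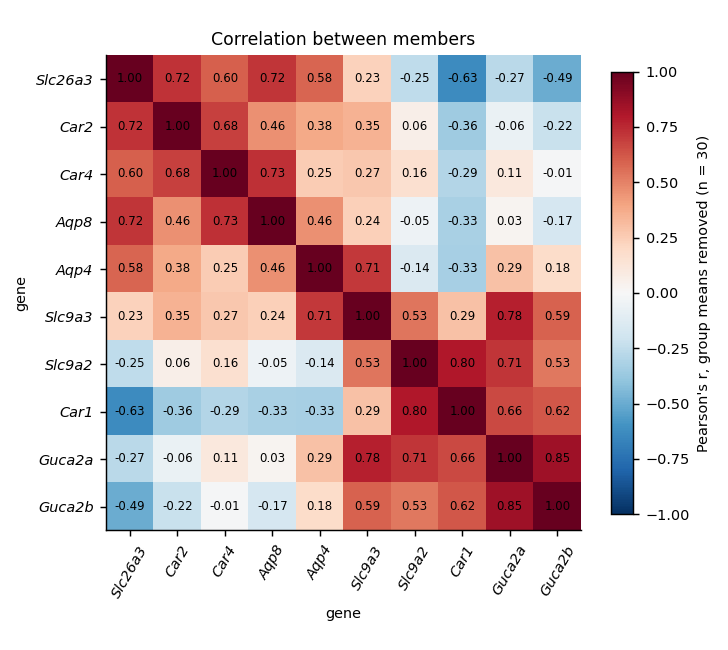
Pearson's r between the log2 CPM of each pair of genes over 30 libraries with group means removed. Red is positive and blue negative. Toward the upper left stand *Slc26a3*, *Car2*, *Car4* and *Aqp8* (r of 0.46 to 0.73), and toward the lower right *Slc9a2*, *Car1*, *Guca2a* and *Guca2b* (r of 0.53 to 0.85).

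Position along the colon was then read from 2 lists. The proximal score is the mean log2 CPM of 8 anterior *Hox* genes (*Hoxb3* to *Hoxb8*, *Hoxd4* and *Hoxd8*) and the distal score that of 6 posterior ones (*Hoxb13*, *Hoxa13* and *Hoxd10* to *Hoxd13*). None of these genes was at 0 in all libraries. *Car1* followed the proximal score more closely than any other gene of the set (r = 0.94, rho = 0.93) and ran against the distal score (r = -0.81, rho = -0.85). These p-values of 1e-05 are the smallest that the 100000 draws can give (adjusted p = 0.000133 over 40 relations). Without the 2 farthest libraries r was 0.92 and -0.82.

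The rest of the second block lay with *Car1*. *Guca2a* correlated with the proximal score at r = 0.60 (rho 0.68, adjusted p = 0.00876 and 0.00125) and with the distal score at r = -0.78 (rho -0.81). *Guca2b* gave 0.63 (rho 0.72) and -0.80 (rho -0.78), and *Slc9a2* 0.68 (rho 0.69) and -0.62 (rho -0.66). *Slc26a3* went the other way, at -0.69 (rho -0.73, adjusted p = 0.00024 and 0.000467) with the proximal and 0.59 (rho 0.58, adjusted p = 0.00206 and 0.00476) with the distal score. Without the 2 farthest libraries these r kept their sign, at 0.58 and -0.74 for *Guca2a*, 0.60 and -0.75 for *Guca2b*, 0.67 and -0.60 for *Slc9a2* and -0.66 and 0.66 for *Slc26a3*. For *Car4* the corresponding values were -0.40 (rho -0.29) and 0.21 (rho 0.11), and for *Aqp8* -0.35 (rho -0.27) and 0.17 (rho 0.056), none past the threshold. Neither the smooth muscle score (r of -0.67 to 0.032) nor the epithelial score (r of -0.43 to 0.45) gave a relation that passed for both coefficients with any of the 10.

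**Figure D5:**
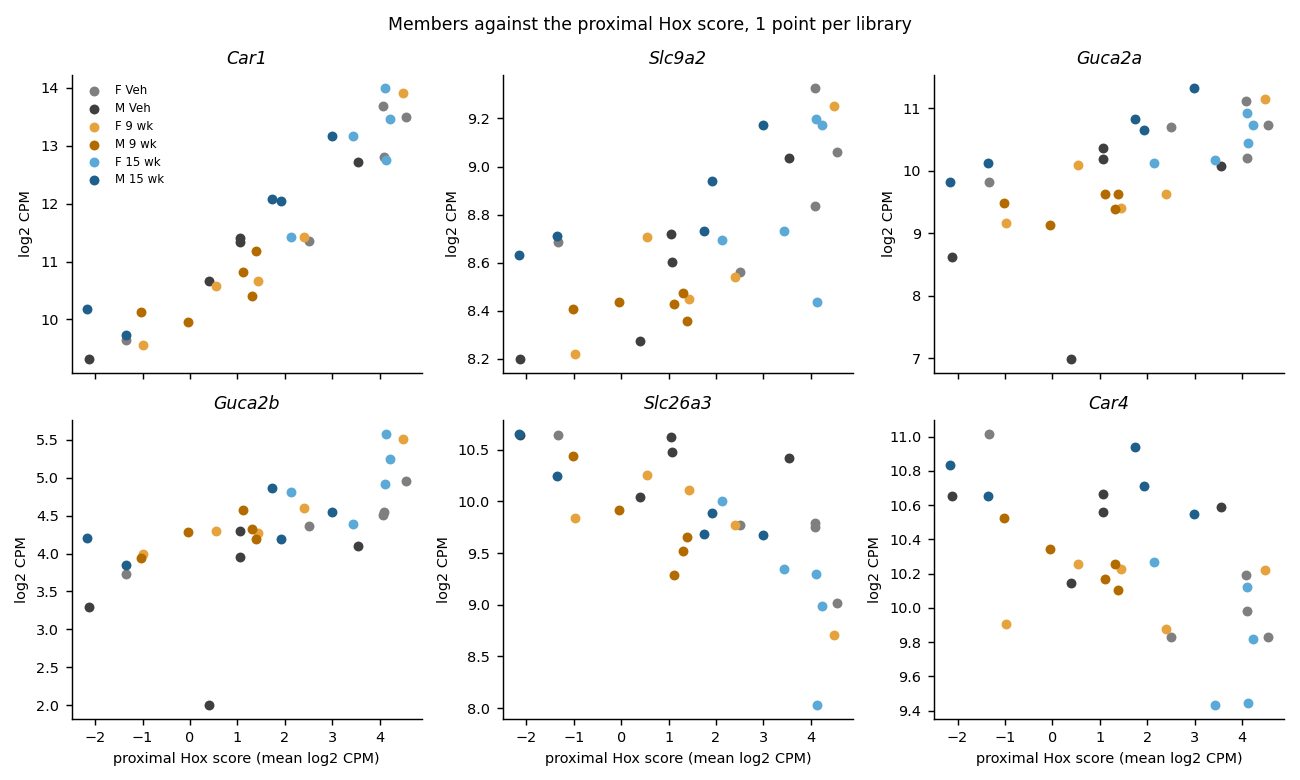
Log2 CPM of 6 of the genes against the proximal *Hox* score (mean log2 CPM of 8 genes), 1 point per library, coloured by group. *Car1* climbs with the score (r = 0.94 with group means removed), *Slc26a3* falls (r = -0.69), and *Car4* shows no relation past the threshold (r = -0.40).

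The position scores also differed between groups. Distal scores were -0.66 to 6.13 in vehicle mice, -0.95 to 3.43 at 9 weeks and -1.17 to 2.80 at 15 weeks. At 15 weeks, where 7.35% of all genes were called, 3 of 6 distal genes were called lower than vehicle. These were *Hoxd10*, *Hoxd11* and *Hoxd13*, by -4.26, -4.12 and -4.82. Of the proximal genes 0 of 8 were called. At 9 weeks none of either list was called by edgeR, where *Hoxd10* and *Hoxd11* had an unadjusted p under 0.05, as had 4720 of all 16261 genes tested. With the distal score as a covariate, *Car2* stayed lower at 9 weeks (-0.56, adjusted p = 0.000641) and was not called at 15 weeks (-0.32, adjusted p = 0.168). With both position scores it was -0.67 (adjusted p = 0.000163) at 9 weeks and, no longer called, -0.49 (adjusted p = 0.0778) at 15 weeks. With the proximal score it was called at both times, and *Guca2b* was then called higher at both (0.49 and 0.58, adjusted p = 0.0456 and 0.0211). *Guca2b* was called at neither with both scores (0.27, adjusted p = 0.287, and 0.12, adjusted p = 0.878). The fits with the proximal score and with both were added after the data were seen. Among vehicle females, female 1 had the highest distal (4.22), connective tissue (3.74) and smooth muscle (2.64) scores. Whether the distal score also followed connective tissue or muscle content was not tested. The *Hox* calls and the fits with the distal score were not tested without vehicle male 1.

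Markers of other cells changed in the same comparisons as *Car2*, where 8.29% of all genes were called at 9 weeks and 7.35% at 15 weeks. An unadjusted p under 0.05 by edgeR was held by 4720 and 5559 of all 16261 genes tested. At 9 weeks 5 of 7 neutrophil markers were called higher, led by *S100a8*, *S100a9* and *Il1b* (by 8.03, 7.07 and 6.88 on the log2 scale), as were 4 of 8 macrophage markers (*Cd14*, *C1qb* and *Lyz2* first), 3 of 8 plasma and B cell markers (*Jchain*, *Mzb1* and *Pou2af1*) and 2 of 8 T cell markers (*Trac* and *Cd3g*). At 15 weeks *S100a8*, *S100a9* and *Il1b*, *Cd14*, and *Trac* and *Lck* were called higher from these lists. Of 8 stem cell markers, *Lgr5*, *Ascl2* and *Smoc2* were called lower and *Notum* and *Nkd1* higher at 9 weeks, and *Lgr5* and *Smoc2* lower and *Notum* higher at 15 weeks. At 15 weeks 7 of 8 smooth muscle markers (*Synm*, *Myh11* and *Actg2* first) and 5 of 14 connective tissue markers (*Lum*, *Dcn* and *Col3a1* first) were called lower, and none of either list was called at 9 weeks by edgeR, where 1 and 2 had an unadjusted p under 0.05. Summed smooth muscle markers ran from 39.4 to 131 CPM in 15-week mice against 58.8 to 5862 CPM in vehicle mice, the highest being male 1. In females their median was 92.1 CPM with vehicle and 93.5 CPM at 15 weeks, so the sums did not fall there. In males the medians were 137 and 67.4 CPM. The calls of these markers were not tested without vehicle male 1. Of the epithelial lists, *Cldn4*, *Spink4* (goblet cells) and *Cck* (enteroendocrine cells) were called higher at both times and *Krt18* at 15 weeks, and no proliferation marker was called at either time by edgeR, with 1 and 0 of 8 at an unadjusted p under 0.05. With the connective tissue score as a covariate, *Car2* was called lower at both times (-0.57 and -0.47, adjusted p = 0.00195 and 0.0192) and *Car4* higher in 15-week males (0.88, adjusted p = 0.0257). The part of the immune and stem cell markers in the results on the 10 genes was not tested.

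Genes outside the set whose log2 CPM ran most closely with each of the 10 over 30 libraries were taken by the highest Pearson's r, as a description. Group means were kept here, and vehicle male 1, the lowest library for *Slc9a3*, *Aqp4*, *Guca2a* and *Guca2b*, was included. Values without that library were not computed. *Car1* was closest to *Aldh1a1* (0.95), a retinaldehyde dehydrogenase, *Slc10a2* (0.95), the ileal bile acid transporter, and *Cyp4b1* (0.95), and *Guca2a* to *Fabp2* (0.96), an intestinal fatty acid-binding protein, *Dpep1* (0.94) and *Hsd3b2* (0.93). *Slc9a2* was closest to *Mep1a* (0.90), a brush border protease, *Gucd1* (0.89) and *Cyp3a13* (0.89), and *Slc9a3* to *Homer2* (0.90), *Dpep1* (0.89) and *Mgat4c* (0.87). *Slc26a3* ran with *Cml2* (0.90), *Ggh* (0.90) and *Ptpn3* (0.90), and *Car2* with *Ndrg3* (0.87), *Pccb* (0.87) and *Slc26a2* (0.87). *Car4* ran with *Cs* (0.88), the citrate synthase of mitochondria, *Ckmt1* (0.86), mitochondrial creatine kinase, and *Aldh2* (0.85), mitochondrial aldehyde dehydrogenase. The closest to *Aqp8* were *Cyp2d9*, *Apoc2* and *Chp2* (0.81 each), to *Aqp4* *Btn1a1* (0.86), *AI481877* (0.86) and *Clca3b* (0.85), and to *Guca2b* *1810065E05Rik* (0.93), *Ctsw* (0.91) and *Gdpd5* (0.90). *Slc26a2* is itself among the transport genes described next.

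The partners of the set were read from lists by function. Over all genes tested, 8.29% were called at 9 weeks and 7.35% at 15 weeks, the shares to set beside the counts in these lists. Counts at an unadjusted p under 0.05 stand beside 4720 and 5559 of all 16261 genes by edgeR. Of 21 tested genes for chloride, bicarbonate, sodium, potassium and short-chain fatty acid transport, 3 were called lower and 1 higher at 9 weeks, and 4 lower and 0 higher at 15 weeks. *Slc26a2*, a sulfate and anion exchanger of the same family as *Slc26a3*, fell by 0.74 (SE 0.16, adjusted p = 0.00227) and 0.66 (SE 0.16, adjusted p = 0.00944) on the log2 scale. *Slc4a4*, a sodium bicarbonate cotransporter, fell by 0.75 (adjusted p = 0.00983) and 0.75 (adjusted p = 0.013). The potassium channel gene *Kcnk5* fell by 0.43 at 9 weeks. *Slc4a7*, another sodium bicarbonate cotransporter, rose by 0.69 at 9 weeks. At 15 weeks *Best2*, a goblet cell bicarbonate channel, fell by 1.43 (adjusted p = 0.0212) and *Kcnma1*, a potassium channel, by 0.43 (adjusted p = 0.0466). The median log2 fold change of the list was -0.19 at both times, against -0.024 and -0.025 over all genes.

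None of 9 genes of guanylate cyclase C signalling was called at either time by edgeR. *Gucy2c*, the receptor of both guanylins, differed by -0.17 (adjusted p = 0.27) and 0.056 (adjusted p = 0.723). *Cftr*, the chloride channel opened downstream, differed by -0.13 (adjusted p = 0.64) and -0.27 (adjusted p = 0.236). In this list 2 genes had an unadjusted p under 0.05 at 9 weeks (*Pde5a* and *Abcc4*), and none did at 15 weeks.

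Of 13 other carbonic anhydrases 9 passed the filter. *Car13*, a cytosolic isoform, rose by 0.46 (SE 0.11, adjusted p = 0.00616) and 0.50 (SE 0.11, adjusted p = 0.0059), opposite in sign to *Car2*. *Car3*, known from muscle and fat, fell by 2.50 and 1.47 on the log2 scale at a mean of 2.36 TPM in vehicle mice. Among 3 aquaporins that passed of 9, *Aqp1*, the channel of vessel endothelium, fell by 0.87 (adjusted p = 0.00539) at 9 weeks and differed by -0.21 (adjusted p = 0.505) at 15 weeks.

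Of 19 other genes of the differentiated surface cell, 2 were called higher (*Krt20*, a surface keratin, by 0.59, and *Ms4a12* by 0.72) and 2 lower (*Mep1a* by -0.55 and *Sult1a1* by -0.64) at 9 weeks, and 1 higher (*Krt20*, by 0.71) at 15 weeks. The median was -0.015 at 9 weeks and 0.20 at 15 weeks. Of 16 epithelial transcription factors, 1 was called at 9 weeks (*Vdr*, the vitamin D receptor, by -0.49) and none at 15 weeks by edgeR, where 6 had an unadjusted p under 0.05. *Cdx2*, *Hnf4a* and *Klf4*, which act in colonocyte differentiation, were not called (0.26, -0.11 and 0.13 at 9 weeks).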

How the data were processed

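RNA of the scraped colon epithelium of 30 mice was sequenced from poly-A selected, stranded libraries. The submitters' processing notes name bcl2fastq 2.20.0.422, CASAVA, Trim Galore, STAR on mm10, featureCounts and StringTie, and the strand setting of the counting is not given in the sources used here. The authors deposited a table of raw counts per gene and, made with StringTie, tables of FPKM and TPM. From the counts, edgeR 4.0.16 (R 4.3.3) was run on all 30 libraries with 1 coefficient per group, the filterByExpr filter (16261 of 46078 genes kept), TMM factors (0.832 to 1.10) and the quasi-likelihood test with Benjamini-Hochberg adjustment (24 residual degrees of freedom). Genes were called as the study did, at an adjusted p under 0.05, a log2 fold change beyond 0.4 and a mean FPKM of at least 1 in a compared group. Log2 CPM used a prior count of 2. Pooled comparisons average both sexes. Permutation p-values of correlations used 100000 draws within groups (Python 3.11.15, numpy 2.4.6, scipy 1.17.1), adjusted over 45 pairs of genes or 40 pairs of a gene and a score.

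In the deposited TPM, 37 mitochondrial genes took 51.8% to 76.3% of a library against 3.95% to 22.96% of its counts. The gene *mt-Nd4l* alone took 39.2% to 58.1% of TPM at only 0.470 to 6.30 CPM (without TMM factors), so this TPM share does not measure mitochondrial RNA. Differences between libraries were therefore read from CPM. TPM were used for orders and ratios within a library, for medians or means over libraries as a description, and in the limma alternatives. No 2 libraries of a group were copies (60 pairs, lowest chi-square per degree of freedom 13.7). Scripts were tested on simulated counts. Alternatives were DESeq2 1.42.0, limma 3.58.1 on log2 TPM with pseudocounts of 1 and 0.1, fits of the compared groups only or without the low-count filter, marker scores as covariates, a replicate block and leaving out each library. RLE normalization was tried too, and the main fit was also read without its FPKM limit and without its fold limit. The fits with the proximal score, with both position scores, on rescaled TPM and without a pair of libraries were added after seeing the data. The genes and the lists were chosen with earlier results of these data known. Every gene of the set was named, from each other list up to 3 called genes with the largest change in each direction at 9 and at 15 weeks, and for each member the 3 genes with the highest Pearson's r. *Gucy2c*, *Cftr*, *Pde5a*, *Abcc4*, *Cdx2*, *Hnf4a*, *Klf4*, *Kcnma1* and the listed *Hox* genes were named beyond this rule. The promoters come from RefSeq (GRCm38.p6), and sequences of the other members were not used here.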

Additional observations from a re-analysis of the deposited data

Results flagged for a closer look

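In 60 groups of 5 values (10 genes in 6 groups), 4 had a library far from the other 4 by Dixon's test (the gap over the range above 0.71), where chance flags about 1 in 20. *Aqp4* stood at 3.86 log2 CPM in vehicle male 1, against a group median of 8.96, and *Car4* at 10.15 in the same library, against 10.59. That library also had the highest smooth muscle score (9.24, against -1.03 to 4.90 in the others). *Aqp4* stood at 6.64 in 9-week female 5, against a median of 9.72. The proximal *Hox* score of that library was 4.49, the highest at 9 weeks. *Slc9a3* stood at 5.66 in 15-week female 2, against a median of 7.48, and mitochondrial genes took 22.96% of the counts there. Over 30 libraries with group means removed, the smooth muscle score gave no relation past the threshold with *Aqp4* (r = -0.48, rho = -0.29, adjusted p = 0.218 and 0.247 by permutation test) or *Car4* (r = -0.090, rho = -0.14, adjusted p = 0.657 and 0.549), nor did the proximal score with *Aqp4* (r = -0.30, rho = -0.44, adjusted p = 0.27 and 0.0582). The part of the mitochondrial share in the *Slc9a3* value was not tested.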

How the results depend on the processing

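Of 1678 comparisons of 70 values with an alternative, 1559 kept their direction and their side of the threshold, 45 lost a call, 23 gained one and 51 changed sign. At 9 weeks *Car2* stayed called in 13 of 16 settings and 20 of 20 leave-one-out fits, and at 15 weeks in 11 of 16 and 16 of 20. The *Car4* call between the sexes at 15 weeks stayed in 7 of 16 settings and 2 of 10 leave-one-out fits. These settings include the main fit read without its FPKM limit and without its fold limit. Neither of those can lose a call or change a sign. The replicate numbers did not pair the mice (median correlation of same-numbered libraries -0.026 over 75 pairs, 12 of them over 0.1), and with the replicate block the number of genes called was 1 at 9 weeks and 1 at 15 weeks and did not move in any of the 12 comparisons.

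The number of the 10 genes called moved as follows. DESeq2 called 2 at 15 weeks and 2 between the sexes at 15 weeks. Fitting the compared groups only gave 0 between the sexes at 15 weeks, 0 in males at 15 weeks and 1 for 15 against 9 weeks (*Guca2a*), and no low-count filter gave 0 between the sexes. The distal score as a covariate gave 2, 0, 2, 0 and 0 at 9 weeks, at 15 weeks, in males at 9 and at 15 weeks and between the sexes at 15 weeks, the proximal score 3, 3, 2, 3 and 0, and both scores 0 at 15 weeks and 0 between the sexes. Leaving out vehicle male 1 and 15-week female 2 together gave 0 between the sexes. On log2 TPM, with either pseudocount, limma called 0 in these 5 comparisons and 1 for 15 against 9 weeks (*Slc26a3*, not called when all genes were kept). The median of TPM over CPM ran over 2.18 log2 units between libraries, and TPM rescaled by median ratios gave back the *Car2* calls and the *Car4* call between the sexes at 15 weeks (0.91, adjusted p = 0.0243), with 2 called at 15 weeks (*Car2* and *Guca2b*). Without 1 library the counts were 1 to 2 at 9 weeks, 0 to 2 at 15 weeks, 0 to 3 for 15 against 9 weeks, 0 to 1 in males at 15 weeks, 0 to 1 between the sexes in vehicle mice and 0 to 2 between them at 15 weeks.

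Signs turned in uncalled values. With the distal score, 15-week values became -0.94 for *Car1*, 0.021 for *Car4*, -0.23 for *Guca2a* and -0.14 for *Slc9a2*, with both scores -0.15 for *Aqp4*, -0.0038 for *Slc9a2* and -0.19 for *Guca2a*, and with the mesenchyme score -0.0058 for *Slc9a2*. Without the pair of libraries *Slc9a3* was -0.032 at 9 weeks. The *Car2* and *Aqp4* correlation was -0.039 with group means kept. On log2 TPM with a pseudocount of 1 (0.1), values were 0.12 (0.12) for *Slc9a2*, 0.17 (0.17) for *Car4* and 0.11 (0.11) for *Guca2a* at 9 weeks, -0.20 (-0.21) for *Slc9a2* at 15 weeks, -0.32 (-0.33) for *Slc9a2*, -0.49 (-0.50) for *Car2* and -0.55 (-0.55) for *Car4* at 15 against 9 weeks, 0.050 (0.050) for *Car2* and 0.31 (0.31) for *Car4* in females at 9 weeks, 0.027 (0.027) and -0.29 (-0.30) for *Car4* in males at 9 and 15 weeks and 0.061 (0.062) for *Car2* between the sexes at 9 weeks. Without 1 library, *Car4* ran from -0.15 to 0.050 at 15 weeks and from -0.23 to 0.14 in females at 9 weeks, *Slc9a3* from -0.033 to 0.24 at 9 weeks and *Car2* between the sexes at 15 weeks from -0.21 to 0.019. The causes were not tested. Depth did not limit the set, whose lowest count in a library was 83.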
